A study of Mus musculus with 8 samples.

Results

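Early subjective day was sampled at circadian time 4 (CT4), 4 h after subjective dawn as the internal clock of the animals counts it. The CT4 libraries were chosen by their titles, at 28 h and 52 h, and make up 2 of 8 libraries. C57/BL6 mice with no stated treatment or genotype had lived in 12 h of light and 12 h of dark, then in constant darkness. The suprachiasmatic nucleus (SCN) was collected every 6 h over 2 days, and each library holds polyadenylated RNA pooled from 3 mice. The other libraries were CT10 (34 h and 58 h, late subjective day), CT16 (40 h and 64 h, early subjective night) and CT22 (22 h and 46 h, late subjective night). All groups share strain, lighting history and darkness, and the ages of the animals are not given in the labels. A pool carries no spread between animals, so each p-value below measures only the spread between pooled libraries taken 24 h apart.

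The SCN is the hypothalamic pacemaker that sets daily rhythms throughout the body. In its cells the factors CLOCK and BMAL1 switch on Per, Cry, Nr1d1 and other genes through E-box sequences, and the PER and CRY proteins later switch that activity off. SCN neurons fire fastest in the subjective day, when calcium and cyclic AMP (cAMP) signalling are also high, and they signal with peptides such as vasopressin (Avp), Vip and Prok2.

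The promoters of the genes that carry the CT4 results were read from RefSeq (GRCm38.p6, a later build than the mm9 of the counts), 250 bases before to 50 after the start. Shown are Rgs16 and Rasl11b, which lead the genes higher at CT4, Avp, which has the highest ratio of the genes called by introns, and Fabp7, the gene of the higher group with a match to a nuclear receptor element. Capitals mark a match to one of 4 motifs searched on both strands: the E-box CACGTG, the cAMP response element TGACGTCA, the D-box TTATGTAA and the RRE core TAGGTCA, to which NR1D and ROR proteins bind. Avp lies on the minus strand, the other genes on the plus strand, and each sequence reads 5′ to 3′ along its gene.
Rgs16, chr1:153740103-153740402: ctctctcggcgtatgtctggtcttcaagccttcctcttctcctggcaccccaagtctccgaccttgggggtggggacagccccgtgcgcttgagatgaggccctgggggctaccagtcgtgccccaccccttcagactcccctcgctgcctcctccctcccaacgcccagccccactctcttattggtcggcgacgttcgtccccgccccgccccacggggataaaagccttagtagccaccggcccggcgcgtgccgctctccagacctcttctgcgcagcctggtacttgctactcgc
Rasl11b, chr5:74195076-74195375: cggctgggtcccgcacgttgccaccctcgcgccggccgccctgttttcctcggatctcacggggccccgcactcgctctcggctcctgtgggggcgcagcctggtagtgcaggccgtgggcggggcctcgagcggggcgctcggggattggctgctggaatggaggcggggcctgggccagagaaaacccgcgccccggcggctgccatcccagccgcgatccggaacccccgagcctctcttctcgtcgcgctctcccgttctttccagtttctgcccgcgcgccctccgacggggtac
Avp, chr2:130582539-130582838: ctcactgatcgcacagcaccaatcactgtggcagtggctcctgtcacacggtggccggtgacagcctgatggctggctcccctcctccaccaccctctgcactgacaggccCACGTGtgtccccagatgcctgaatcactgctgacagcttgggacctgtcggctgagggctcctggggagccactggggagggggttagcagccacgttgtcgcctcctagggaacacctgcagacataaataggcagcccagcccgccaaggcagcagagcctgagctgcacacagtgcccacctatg
Fabp7, chr10:57784673-57784972: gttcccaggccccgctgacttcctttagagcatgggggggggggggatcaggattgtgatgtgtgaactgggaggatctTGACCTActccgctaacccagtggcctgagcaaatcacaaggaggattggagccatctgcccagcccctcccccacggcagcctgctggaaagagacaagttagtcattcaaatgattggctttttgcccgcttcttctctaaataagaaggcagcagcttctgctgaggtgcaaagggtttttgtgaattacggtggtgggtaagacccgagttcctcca
The Avp window held an E-box at -139 from the start, and the Fabp7 window an RRE core at -171. No letters of the 4 motifs were in the Rgs16 and Rasl11b windows. Of 15 genes named as higher at CT4, 12 had an entry (12 windows): 0 held an E-box, against 7.15% of all 32851 windows, and 0 a D-box (0.938% of all). One of the 12 held a cAMP response element (Hdx, 8.33% against 1.79% of all) and 1 the RRE core (Fabp7, 8.33% against 2.61%). Of 15 genes that met the rule for lower genes, 9 had an entry, with 14 windows, and 1 window (Nkain1, 7.14%) held an E-box. The E-box and the cAMP response element share the core letters ACGT, and a match is a description of the letters, not of binding.

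Sense gene reads totalled between 11123610 and 11131890 and intron reads between 4196931 and 4199146 in the 8 libraries, so read depth was nearly equal. Nearly equal depth does not make the pooled libraries equally precise. At CT4, 6 genes were higher and 3 lower than the mean of the other 3 circadian times (edgeR quasi-likelihood test, adjusted p below 0.05 over 15217 genes, 0.0394% and 0.0197% of those tested, 0.0591% together). At an unadjusted p below 0.05 there were 1568 genes (10.3%). Without the 52-h library 74 genes were called, without the 40-h library 63, without the 28-h library 5 and without the 34-h library 4. The 6 higher genes were Rasl11b, Rgs16, Fabp7, Dusp4, Fosl2 and Nr1d1, and the 3 lower genes Rasd1, Tsc22d3 and Gltp. By the plain order of the libraries, 756 genes had both CT4 libraries above all of the other 6 (4.97%) and 949 had both below (6.24%). These counts describe the libraries and carry no test. All 9 called genes were among them.

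**Figure D1:**
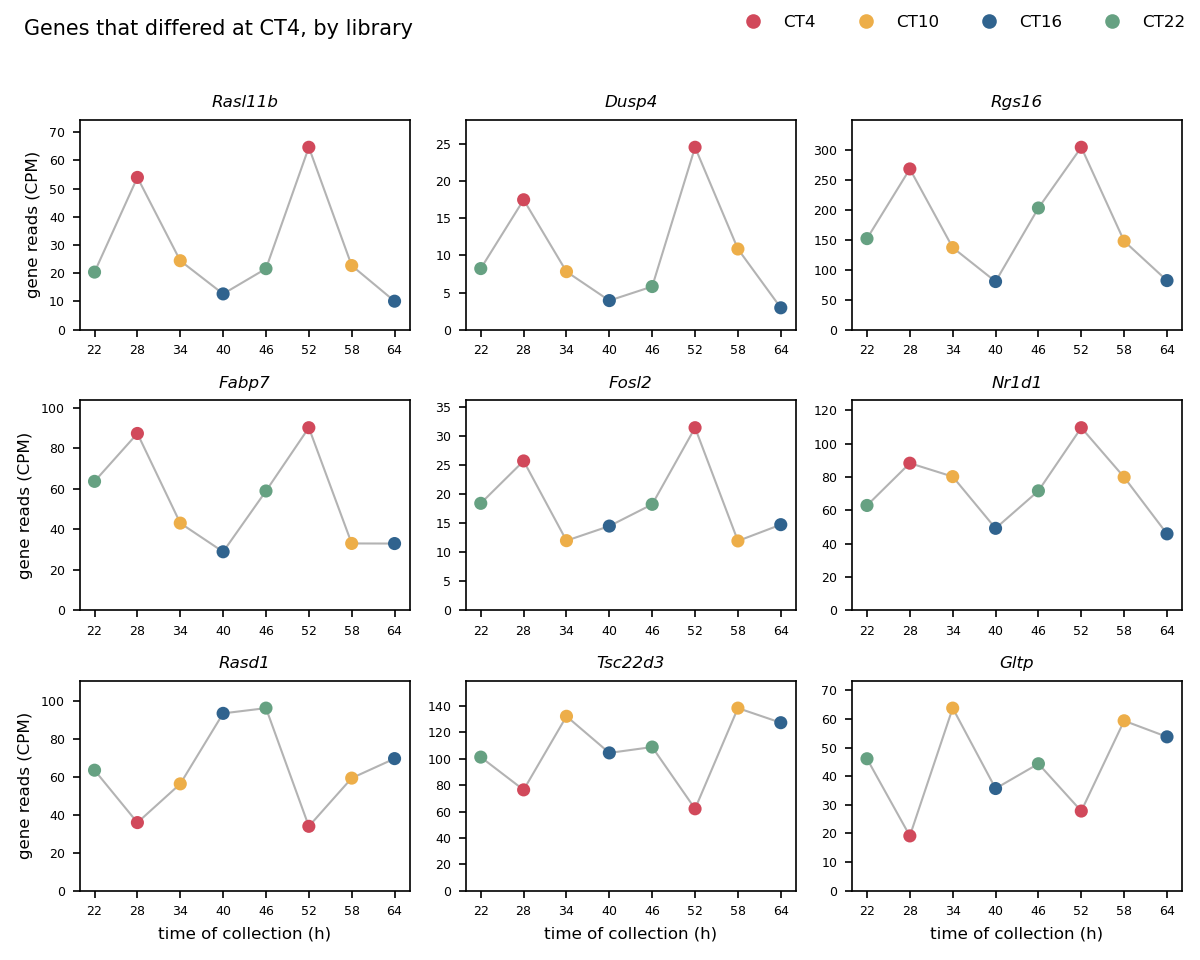
Level (CPM, reads scaled to a common library size) in each of the 8 libraries for the 9 genes called at CT4, 1 panel per gene, against the time of collection (h), with 1 coloured point per library and a line that joins them in order. In every panel both CT4 points lie on one side of the other 6; Rasl11b and Dusp4 have the highest ratios, 3.33 and 3.45.

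Dusp4, Rasl11b and Rgs16, all from the list of MAP kinase and G-protein feedback, had the highest ratios of the 6 higher genes. Rasl11b encodes a small GTPase of the Ras-like family and was measured at 53.9 and 64.6 CPM (reads scaled to a common library size) in the 28-h and 52-h libraries. It was at 24.4 and 22.7 CPM at CT10, 12.7 and 10.1 at CT16, and 20.4 and 21.6 at CT22. Both CT4 libraries were at least 2.21 times the highest other library, the widest such gap among genes above the other 6 with a mean of at least 5 CPM. The log2 difference from the other times was 1.73 ± 0.13 (SE, n = 2 against 6 libraries; edgeR adjusted p = 1.43e-05). Rasl11b (mm9 chromosome 5, 74591292 to 74595640) was also the 1 gene called against each of the other 3 times alone, with adjusted p of 0.00831 against CT10, 1.4e-05 against CT16 and 0.00434 against CT22.

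Rgs16 encodes a GTPase-activating protein that shortens signalling by Gi-coupled receptors and sets cAMP levels in SCN neurons. It stood at 268 and 304 CPM at CT4, 137 and 148 at CT10, 80.3 and 81.9 at CT16, and 152 and 203 at CT22. CT4 was highest and CT16 lowest, and the 46-h library came closest to CT4. The log2 difference was 1.17 ± 0.10 (edgeR adjusted p = 9.65e-05), on mm9 chromosome 1, 155587463 to 155592781. Against CT16 alone the ratio was 3.53 (edgeR adjusted p = 1.4e-05) and against CT10 alone 2.01 (edgeR adjusted p = 0.0115), while against CT22 the adjusted p was 0.146.

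Dusp4 encodes a nuclear phosphatase that inactivates ERK and is itself induced by ERK signalling. Its levels were 17.5 and 24.6 CPM at CT4, 7.82 and 10.9 at CT10, 3.92 and 2.95 at CT16, and 8.23 and 5.82 at CT22. The log2 difference was 1.79 ± 0.21 (edgeR adjusted p = 0.00233; mm9 chromosome 8, 35870264 to 35883097). Fosl2, which encodes the AP-1 factor FRA-2, had 25.8 and 31.5 CPM at CT4 against 11.9 to 18.4 in the other 6, lowest at CT10. Its log2 difference was 0.96 ± 0.15 (edgeR adjusted p = 0.0226; mm9 chromosome 5, 32438812 to 32460720).

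Of 33 tested genes of MAP kinase and G-protein feedback, 15 were higher and 18 lower at CT4, and the median ratio was 0.99, as over all genes (0.99). The list, chosen with earlier results of these data known, held 4 called genes, against 0.0591% of all genes tested. They were Rasl11b, Rgs16 and Dusp4 among the higher and Rasd1 among the lower. Both CT4 libraries were above the other 6 for 3 members (4.97% of all genes). They were below for 3, namely Rasd1, Dusp7 and Rgs3 (6.24% of all genes), and the list showed no common direction. Of 21 immediate-early genes, which respond to calcium and cAMP within minutes, 8 were higher and 13 lower (median ratio 0.93), and Fosl2 alone was called. Sik1 and Btg2 also had both CT4 libraries above the other 6, which with Fosl2 makes 3 members (4.97% of all genes were above). Sik1, a kinase that restrains CREB coactivators and limits the clock's shift to light, was at 71.5 and 83.3 CPM against 39.4 to 58.7 (edgeR adjusted p = 0.104). Klf4 was at 3.95 and 4.77 CPM, both below the other 6 at 6.57 to 9.43 (edgeR adjusted p = 0.187). Jun was also below, at 18.6 and 25.5 CPM against 26.4 to 52.8 (edgeR adjusted p = 0.393). These were the 2 members below, against 6.24% of all genes. Among 33 genes of cAMP signalling 19 were higher and 14 lower and none was called, and with a term for the level of oligodendrocyte markers 9 were higher and 24 lower. Pde2a (283 and 254 CPM against 161 to 233) and Pde10a (75.8 and 78.5 against 54.4 to 68.9) encode cyclic nucleotide phosphodiesterases and had both CT4 libraries highest, with edgeR adjusted p of 0.187 and 0.374. Rapgef3, a cAMP-activated exchange factor, had both lowest (44.0 and 44.8 CPM against 47.6 to 66.7; edgeR adjusted p = 0.392).

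Fabp7 encodes a fatty acid binding protein of astrocytes and progenitor cells. It was at 87.3 and 90.2 CPM at CT4, 43.0 and 33.0 at CT10, 28.8 and 32.9 at CT16, and 63.6 and 58.9 at CT22. The level was therefore highest at CT4 and next highest at CT22, with no overlap between CT4 and any other time. The log2 difference was 1.09 ± 0.11 (edgeR adjusted p = 0.000463; mm9 chromosome 10, 57504667 to 57508288), and against CT22 alone the adjusted p was 0.458. Its intron reads numbered 53 and 59 at CT4, 27 and 14 at CT10, 39 and 38 at CT16, and 75 and 100 at CT22, so that CT22 was highest and CT4 next (ratio 1.36, edgeR adjusted p = 0.688). Fabp7 is outside the list of astrocyte markers. Of 12 astrocyte markers 3 were higher and 9 lower at CT4, none called, and their summed level was 6576 to 6642 CPM against 7039 to 8171 in the other 6.

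Among 20 clock genes 13 were higher and 7 lower at CT4, with a median ratio of 1.11 (0.99 over all genes). Nr1d1, which encodes the repressor REV-ERBα, was the 1 clock gene called. It was measured at 88.2 and 110 CPM at CT4, 80.1 and 79.8 at CT10, 49.1 and 45.8 at CT16, and 62.8 and 71.6 at CT22. CT4 was highest, CT10 next and CT16 lowest, and the log2 difference from the other times was 0.64 ± 0.11 (edgeR adjusted p = 0.0413; mm9 chromosome 11, 98629198 to 98636708). Rora (163 and 199 CPM against 83.8 to 156), Nr1d2 (232 and 258 against 173 to 222) and Hlf (193 and 208 against 138 to 181) also had both CT4 libraries above the other 6, and none of the 3 passed the test (edgeR adjusted p = 0.116, 0.265 and 0.264). With Nr1d1 these made 4 clock genes above the other 6 (4.97% of all genes were), and 0 were below (6.24% of all). Rora encodes an activator at the elements where NR1D1 and NR1D2 repress, and Hlf a PAR bZIP factor that binds D-boxes.

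Per1 overlapped CT10, and Dbp had both CT4 libraries below both CT10 libraries (edgeR adjusted p = 0.469 against CT10 alone). Per1, a repressor of CLOCK and BMAL1, was at 77.2 and 86.7 CPM at CT4, 74.8 and 97.7 at CT10, 41.5 and 42.2 at CT16, and 49.9 and 45.3 at CT22. Dbp, another D-box activator, was at 66.5 and 77.1 CPM at CT4, 92.9 and 79.9 at CT10, and 32.0 to 38.8 in the 4 night libraries. For both genes CT4 and CT10 were above every night library. Against CT16 alone Per1 was 1.96 times and Dbp 2.03 times as high (edgeR adjusted p = 0.0169 each), and against all other times neither was called (0.104 each). Like Dbp, Per2 (67.9 and 87.4 CPM at CT4) and Gm129, also named Ciart (13.1 and 14.9), were highest at CT10. Per2 was there at 88.0 and 114 CPM and Gm129 at 21.1 and 20.8 CPM. For Per2 and Gm129 the edgeR adjusted p at CT4 was 0.465 and 0.551.

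None of the remaining clock genes was called against the other times together. Arntl, which encodes BMAL1, was at 44.95 and 39.4 CPM at CT4 and between 32.6 and 60.7 elsewhere (edgeR adjusted p = 0.891), and Clock was at 79.1 and 91.8 against 70.2 to 102 (0.937). Cry1 was at 38.3 and 38.0 CPM, close to CT22 (38.8 and 38.2), and was highest at CT10 and CT16 (43.4 to 52.6; edgeR adjusted p = 0.552). Per3 (0.793), Cry2 (0.562), Npas2 (0.561), Tef (0.703), Nfil3 (0.817), Bhlhe40 (0.742), Bhlhe41 (0.999) and Timeless (0.415) had edgeR adjusted p values as given in brackets. Rorb, an SCN-enriched member of the ROR family, was at 190 and 219 CPM at CT4 and 116 to 194 elsewhere, with the 46-h library between the CT4 pair. Rorb was called against CT10 alone (ratio 1.68, edgeR adjusted p = 0.0473). Of 22 clock modifiers, such as kinases and ubiquitin ligases, 12 were higher, 10 lower and none called. Fbxl21, a ubiquitin ligase subunit that acts on CRY, was at 21.4 and 19.0 CPM against 8.50 to 15.5 (edgeR adjusted p = 0.123), and Usp2 at 20.8 and 18.7 against 20.6 to 33.2 (0.459).

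Intron reads come mostly from transcripts not yet spliced, and by them 7 genes were higher and 2 lower at CT4 (edgeR, 0.0652% and 0.0186% of 10733 genes with summed introns; 949 genes, 8.84%, at an unadjusted p below 0.05). Without the 40-h library 22 genes were called and without the 52-h library 18. Rgs16 again led, with 260 and 254 intron reads at CT4, 76 and 87 at CT10, 44 and 59 at CT16, and 88 and 170 at CT22. Its log2 difference was 1.65 ± 0.20 (edgeR adjusted p = 2.44e-05), and 3 of its 4 introns had both CT4 libraries highest. The same held for 2 of 3 introns in Rasl11b, 3 of 7 in Nr1d1, 1 of 2 in Avp and 3 of 11 in Creb3l1. Only 6 of the 11 Creb3l1 introns had at least 10 reads in all, and 1 of the 3 counted had 6 reads. Rasl11b had 75 and 54 intron reads at CT4 and 11 to 28 in the other 6, a log2 difference of 2.00 (edgeR adjusted p = 0.00716). Nr1d1 had 244 and 305 at CT4, 156 and 171 at CT10, 93 and 97 at CT16, and 155 and 220 at CT22, a log2 difference of 0.94 (edgeR adjusted p = 0.00982). These 3 genes were thus called by both kinds of read. The intron sums of Dusp4 (ratio 5.04, edgeR adjusted p = 0.247), Fosl2 (1.75, 0.751), Tsc22d3 (0.432, 0.668) and Gltp (1.06, 0.964) were not called. Gltp, lower by gene reads, had 33 and 53 intron reads at CT4 and 21 to 54 in the other 6. Rasd1 had no tested intron sum.

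Avp, which encodes vasopressin, was called by its introns and not by its gene reads. It had 87 and 108 intron reads at CT4, 10 and 31 at CT10, 7 and 14 at CT16, and 29 and 49 at CT22. The log2 difference was 2.25 ± 0.33 (edgeR adjusted p = 0.000567). Of 335 reads in its 2 introns, 317 fell in the longer one (mm9 chromosome 2, 130406994 to 130408145, 1152 bases). Gene reads of Avp gave 37.8 and 54.3 CPM at CT4, 51.3 and 52.8 at CT10, 12.8 and 22.4 at CT16, and 49.9 and 37.0 at CT22. By gene reads CT4 overlapped both CT10 and CT22, and the adjusted p was 0.428. The difference between the intron and the gene contrast was itself not tested. Creb3l1 encodes a transcription factor of the endoplasmic reticulum that acts on the Avp promoter. It had 54 and 117 intron reads at CT4 against 13 to 38 in the other 6 (log2 difference 1.83, edgeR adjusted p = 0.00494), and its gene reads gave 10.05 and 15.4 CPM at CT4 and 3.38 to 11.6 elsewhere (0.198).

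**Figure D2:**
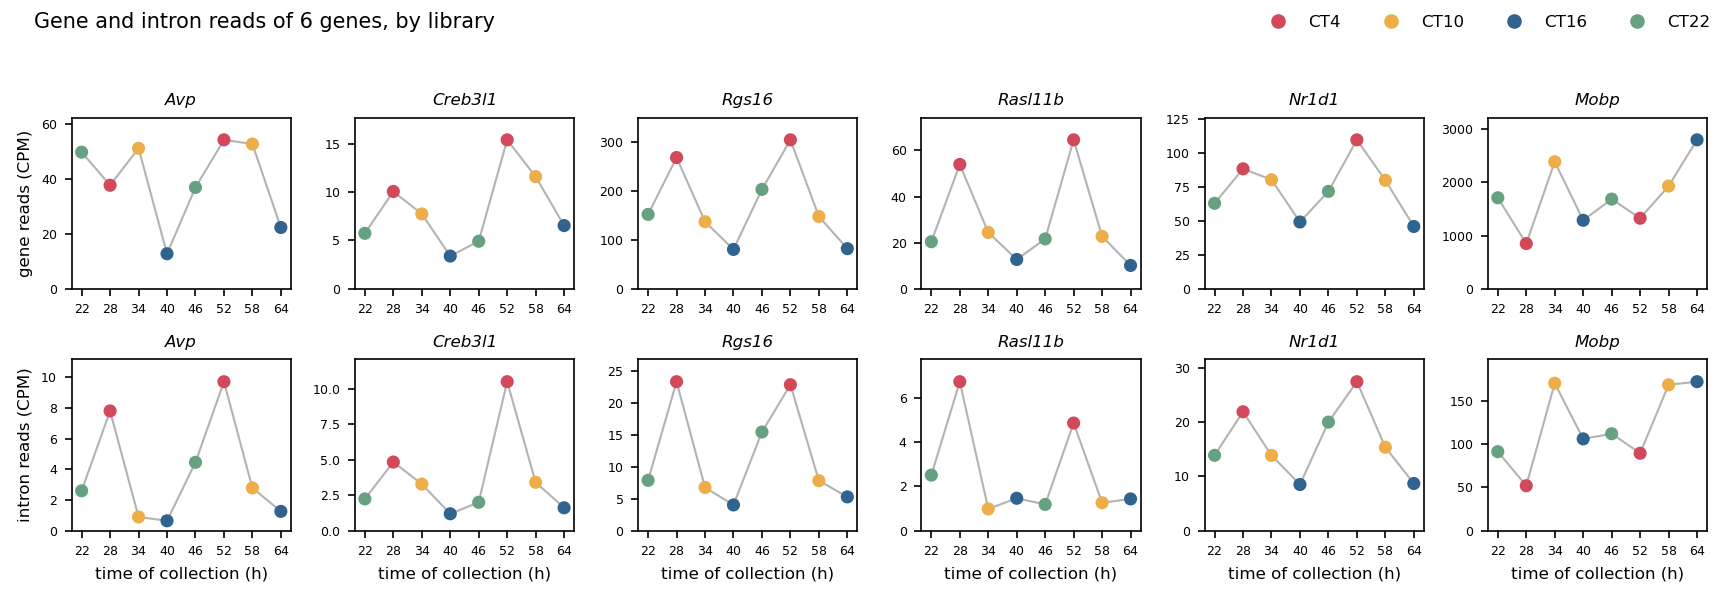
Gene level (upper panels, CPM) and summed intron level (lower panels, CPM) of 6 genes called by intron reads against the time of collection (h), with 1 coloured point per library. Avp introns stand highest in both CT4 libraries (7.81 and 9.72 CPM), while its gene level at CT4 overlaps CT10 and CT22.

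Further intron calls at CT4 were Dlk1 and Rims3 among the higher, both named after their values were seen, and Mobp and Cst3 among the lower. Dlk1, an imprinted gene for a Notch-like membrane protein, had intron levels of 25.1 and 42.6 CPM at CT4 against 15.4 to 21.9 (edgeR adjusted p = 0.0402). Rims3, which encodes a presynaptic active zone protein, had 29.3 and 33.3 CPM of intron reads against 13.2 to 26.8 (edgeR adjusted p = 0.0425). Mobp, a myelin gene, had 580 and 997 intron reads at CT4 against 1023 to 1932 (log2 difference -0.92, edgeR adjusted p = 0.00982). Cst3, which encodes the protease inhibitor cystatin C, had intron levels of 24.1 and 24.7 CPM against 28.8 to 59.7 (edgeR adjusted p = 0.0469). Both CT4 libraries were highest in 2 of 5 single introns of Dlk1 and 1 of 6 of Rims3. They were lowest in 1 of 2 introns of Mobp and 2 of 3 of Cst3. The introns with most reads in Mobp (9446 reads) and Cst3 (2080) were not among these. By DESeq2, another count test, the adjusted p for Mobp was 0.444, for Cst3 0.461 and for Dlk1 0.0583. Leaving out 1 library ended the call for Nr1d1 (without the 52-h library, adjusted p = 0.186), Creb3l1 (without the 52-h library, 0.333), Rasl11b (without the 28-h library, 0.173) and Mobp (without the 28-h library, 0.293). It was also ended for Dlk1 without the 34-h, 64-h, 22-h, 46-h or 52-h library (0.06 to 0.555), and for Rims3 (0.0744 to 0.239) and Cst3 (0.06 to 0.214) without any library but the 40-h and 58-h ones. Rgs16 and Avp were called without any 1 of the 8 libraries.

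Of 10575 genes measured in both ways, 528 had both CT4 libraries above the other 6 by gene reads and 659 by intron reads. Both held for 73 genes, 13.8% of the gene list and 11.1% of the intron list, and 6.23% of all 10575 genes were above by introns. Below the other 6 were 626 genes by gene reads and 364 by introns. Both held for 46, 7.35% of the gene list and 12.6% of the intron list, and 3.44% of all genes were below by introns. Cryab and Tsc22d3 were among the 46. Tsc22d3 had few intron reads, 2 and 8 at CT4 and 8 to 20 in the other 6 (edgeR adjusted p = 0.668). Its 52-h and 40-h libraries both had 8 reads and differed only after scaling. The order was the opposite by introns for 11 of the 528 and 20 of the 626 genes.

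Among SCN peptides and their receptors (22 tested, 9 higher, 13 lower, none called) the highest ratio at CT4 was that of Prok2. Prok2 encodes prokineticin 2, an output signal of the SCN, and was at 9.69 and 12.4 CPM at CT4, 2.31 and 3.23 at CT10, 1.64 and 5.37 at CT16, and 3.85 and 0.909 at CT22. Both CT4 libraries were above all others, the ratio was 3.87 and the edgeR adjusted p 0.109. By DESeq2 it was 0.0085. The Prok2 promoter window held an E-box at -135. An E-box also stood in 1 Per1 window (at -166), and another Per1 window had none. Gm129 (Ciart), highest at CT10, had 3 E-boxes, and the Dbp window held none of the 4 motifs. Avpr1a, a vasopressin receptor, was at 7.99 and 7.74 CPM at CT4 and 10.5 to 25.7 elsewhere, the reverse order (edgeR adjusted p = 0.116). Vip was at 189 and 266 CPM against 222 to 375 (edgeR adjusted p = 0.727), and its receptor Vipr2 at 52.8 and 53.1 against 41.3 to 144 (0.404). Of 19 transcription factors and other genes that mark the SCN 12 were higher and 7 lower, with Rgs16 the 1 call.

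Other genes with both CT4 libraries highest did not pass the test, and they are given in order of p. Hivep1, a zinc finger factor, was at 85.3 and 81.6 CPM against 46.8 to 71.2 (edgeR adjusted p = 0.116). Rtl1, an imprinted gene derived from a retrotransposon and neighbour of Dlk1, was at 32.1 and 27.2 CPM against 13.8 to 21.1 (0.116). Chrna3, a nicotinic receptor subunit, was at 21.6 and 11.3 CPM against 6.30 to 10.1, so that the CT4 pair differed more between themselves than the other 6 did (0.12). Hdx (37.1 and 39.9 CPM against 22.1 to 31.5; 0.123), Rbm33 (161 and 172 against 116 to 139; 0.123) and Chodl (43.9 and 48.9 against 23.6 to 38.9; 0.124) followed. Chodl, a membrane lectin, was called against CT10 alone (ratio 1.90, edgeR adjusted p = 0.0262).

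Rasd1, Tsc22d3 and Gltp fell at CT4. Rasd1 encodes a small GTPase that modulates G-protein signalling and light responses in the SCN. It was at 35.9 and 33.9 CPM at CT4, 56.3 and 59.4 at CT10, 93.5 and 69.7 at CT16, and 63.5 and 96.3 at CT22. CT4 was lowest with no overlap, the log2 difference was -1.05 ± 0.16 (edgeR adjusted p = 0.0226; mm9 chromosome 11, 59776565 to 59778488), and Rasd1 was called against CT16 alone (0.0169). Tsc22d3, the glucocorticoid-induced leucine zipper, was at 76.4 and 62.1 CPM at CT4, 132 and 138 at CT10, 104 and 127 at CT16, and 101 and 109 at CT22. Its log2 difference was -0.77 ± 0.11 (edgeR adjusted p = 0.0226; mm9 chromosome X, 137073814 to 137135220). Gltp, a glycolipid transfer protein, was at 19.1 and 27.8 CPM at CT4, 63.8 and 59.4 at CT10, 35.7 and 53.7 at CT16, and 46.1 and 44.3 at CT22, a log2 difference of -1.09 ± 0.17 (edgeR adjusted p = 0.0289; mm9 chromosome 5, 115119294 to 115141015).

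With the other 6 libraries as 1 group, whose spread then holds the differences between the other 3 times, Rasl11b alone was still called (edgeR adjusted p = 0.0184), and the other 8 had adjusted p of 0.136 to 0.274. Leaving out 1 library ended several of these calls and reversed none. Rasl11b, Rgs16, Fabp7 and Dusp4 were called without any 1 of the 8 libraries. Gltp was lost without the 34-h (edgeR adjusted p = 0.132), 58-h (0.0826) or 28-h library (0.436). Rasd1 (0.0786 to 0.435) and Tsc22d3 (0.0635 to 0.0958) were lost without either CT10 or either CT4 library. Fosl2 (0.0594 to 0.115) and Nr1d1 (0.0635 to 0.146) were lost without those or the 64-h library.

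Markers of oligodendrocytes, the myelinating cells, were lower at CT4, without a call. In tissue RNA, fewer cells of a type and less RNA per cell cannot be told apart. All 12 oligodendrocyte markers were lower at CT4 (0 called, 3 with both CT4 libraries below the other 6, against 6.24% of all genes), with a median ratio of 0.57. Their summed level was 5112 CPM at 28 h and 8497 at 52 h, against 8211 to 15983 in the other 6, and no marker was at 0 in any library. Mbp was at 1496 and 2283 CPM at CT4 against 2465 to 5017 (edgeR adjusted p = 0.116). The 28-h library thus stood lowest and the 52-h library near the lower end of the others. Of 6 markers of oligodendrocyte precursors all were lower (3 with both CT4 libraries below, against 6.24% of all genes), summing to 233 to 238.2 CPM against 281.3 to 322.6. Gpr17, a receptor of such precursors, was at 69.8 and 67.1 CPM against 89.4 to 110 (edgeR adjusted p = 0.0928). Gpr37, a receptor of myelinating cells, was at 53.4 and 60.0 CPM against 66.7 to 116 (0.0781).

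With the mean log2 level of the oligodendrocyte markers as a further term, 3 of the 9 gene calls were left: Rasl11b (adjusted p = 0.00941), Rgs16 (0.0117) and Fabp7 (0.0314), all by edgeR. The estimates of the higher genes moved little: Dusp4 stayed at 1.78, Fosl2 went to 1.09 and Nr1d1 to 0.74 on the log2 scale, with edgeR adjusted p of 0.28, 0.361 and 0.508. Gltp went from -1.09 to -0.57 (edgeR adjusted p = 0.63), Tsc22d3 to -0.75 (0.508) and Rasd1 to -1.27 (0.209). By introns 2 calls were left with the term, Rgs16 and Creb3l1 (edgeR adjusted p = 0.0382 each), and Avp was at 0.13. The median ratio of the oligodendrocyte list itself was 0.999 with the term, as its construction sets.

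Further genes with both CT4 libraries lowest missed the threshold. Fzd8, a Wnt receptor, was at 3.50 and 3.96 CPM at CT4 and 7.197 to 14.8 elsewhere (edgeR adjusted p = 0.0781). Nkain1, which encodes a protein that interacts with the sodium pump, was at 54.9 and 55.1 against 74.4 to 89.3 (0.0781). Igfbp6, a binding protein of insulin-like growth factor, was at 1.88 and 2.34 CPM against 4.65 to 11.2 (0.0928), the widest gap on the lower side among genes with a mean of at least 5 CPM (nearest other library 1.99 times as high). Ttyh2, Rtkn, Cryab, Nde1 and Sulf2 had ratios of 0.578, 0.584, 0.481, 0.571 and 0.699, with edgeR adjusted p of 0.0928 to 0.104. Cd74, a microglial chaperone of antigen presentation, was at 2.69 and 4.41 CPM against 6.75 to 19.1 (0.104). Meningeal markers were also lower (0 of 9 higher), at 116.9 and 448.8 CPM in sum against 321.4 to 626.7. Microglial markers (2 of 10 higher) summed to 228 to 230.1 CPM against 242.6 to 320.4. The part of these cell types in the lower genes was not tested beyond the oligodendrocyte term.

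Genes induced by glucocorticoid hormone were mostly lower at CT4. Of 16 such genes 15 were lower and 1 higher, 8 had both CT4 libraries below the other 6, and the median ratio was 0.72. Over all genes 7821 of 15217 were lower, 6.24% had both CT4 libraries below, and the median ratio was 0.99. Tsc22d3 was the 1 member called. Fkbp5, a chaperone of the glucocorticoid receptor, was at 30.8 and 33.6 CPM at CT4 against 42.1 to 58.2 (edgeR adjusted p = 0.104). Sgk1, a kinase, was at 32.7 and 25.6 CPM at CT4, 58.9 and 100 at CT10, and 35.8 to 44.6 at the other times (0.153), and was called against CT10 alone (ratio 0.366, edgeR adjusted p = 0.0124). Per1, which is also in the clock list, was the higher member (ratio 1.47). The summed level of the list was 510.7 to 529.9 CPM at CT4 and 523.4 to 849.6 in the other 6, so the sums overlapped. With the oligodendrocyte term the median ratio was 0.74, with 3 higher and 13 lower.

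Protein folding genes leaned lower at CT4 than the mean of the other times, without a call, but their sums were lowest at CT10. Of 26 heat shock genes 3 were higher and 23 lower (median ratio 0.90). They summed to 9009 and 8290 CPM at CT4, 7719 and 7168.5 at CT10, and 9571 to 10569 at CT16 and CT22. Dnajb1 was at 62.8 and 52.4 CPM at CT4, level with CT10 (61.0 and 60.1) and below CT16 and CT22 (87.2 to 117; edgeR adjusted p = 0.153). Of 21 folding genes of the endoplasmic reticulum 6 were higher and 15 lower (median ratio 0.90). Their sum was 4808 and 4563 CPM at CT4, 4352.5 and 4235 at CT10, and 4740 to 5413 at CT16 and CT22. Syvn1, a ubiquitin ligase of that compartment, was at 34.6 and 37.4 CPM against 43.6 to 56.2 (0.168), and Creld2 at 11.485 and 9.72 against 13.6 to 22.9 (0.198). Of 19 cholesterol synthesis genes 7 were higher and 12 lower, and 5 had both CT4 libraries lowest (6.24% of all genes did, and 7396 genes were higher and 7821 lower). Fdps was at 71.4 and 59.9 CPM against 75.5 to 90.2 (0.389) and Sqle at 98.4 and 100 against 106 to 126 (0.436).

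Ion channel and GABA genes had more members higher than lower, with no call. Of 28 ion channels of neuronal firing 19 were higher (median ratio 1.04), and Scn8a, a sodium channel, was at 144 and 149 CPM against 94.8 to 134 (edgeR adjusted p = 0.279). It was the 1 channel with both CT4 libraries highest (4.97% of all genes were). Both were lowest for 3 channels (6.24% of all genes). These were Kcna1 (43.6 and 48.8 CPM against 50.8 to 93.3, edgeR adjusted p = 0.134), Kcnn2 (ratio 0.786) and Hcn2 (0.77). Of 24 genes of GABA signalling 19 were higher (median ratio 1.08). Both CT4 libraries were above the other 6 for 3 of the 24 and below for 0. Gabrd, a subunit of extrasynaptic receptors, was at 6.55 and 2.70 CPM against 0.894 to 2.43 (edgeR adjusted p = 0.251). With the oligodendrocyte term both medians were 0.98, and the members higher were 11 of 28 channels and 8 of 24 GABA genes. Of 24 SR and hnRNP RNA-binding genes 17 were higher. Sfpq, a splicing factor that also works with PER proteins, was at 121 and 133 CPM at CT4, 147 and 121 at CT10, 233 and 219 at CT16, and 167 and 172 at CT22. Sfpq was lower at CT4 than at CT16 alone (ratio 0.563, edgeR adjusted p = 0.015). Of 3 cold-inducible genes 2 were higher. Rbm3 was at 110 and 121 CPM at CT4 and 184 and 204 at CT10 (ratio 0.596, edgeR adjusted p = 0.0124) and was near the CT4 level at the other times. Glycolysis (7 of 19 higher) and oxidative phosphorylation (6 of 24) held no call and no gene with both CT4 libraries above, or both below, the other 6.

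**Figure D3:**
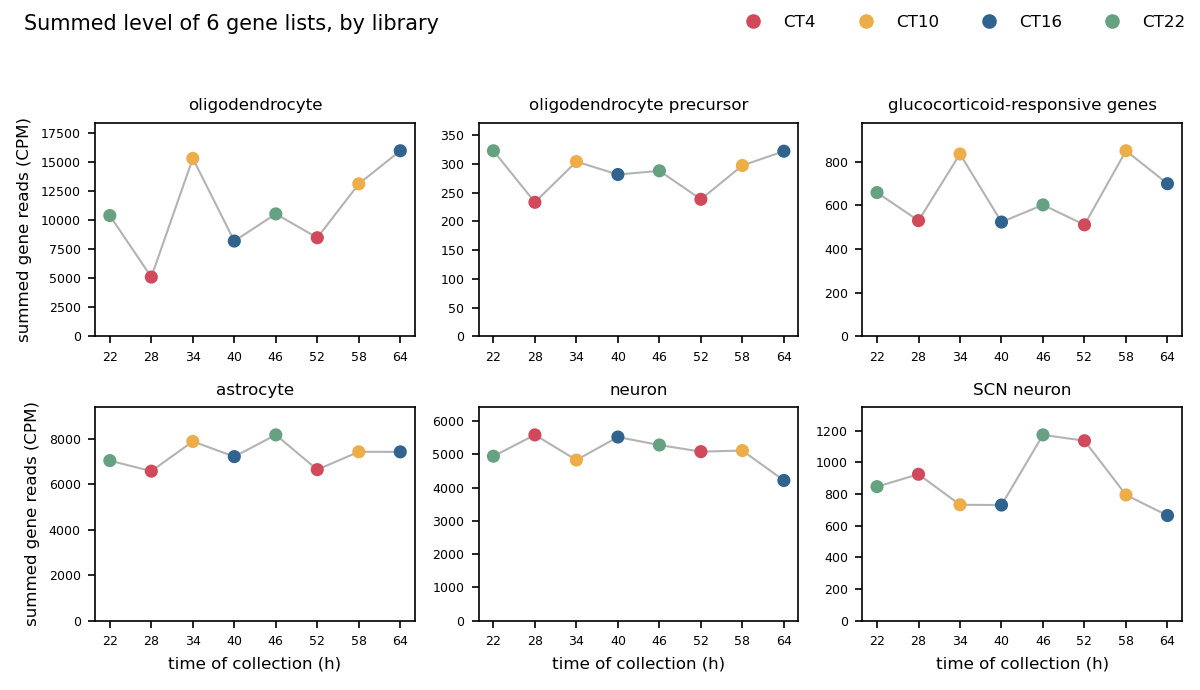
Summed level (CPM) of 6 gene lists in each library against the time of collection (h), with 1 coloured point per library. The oligodendrocyte sum is lowest at 28 h (5112 CPM), the precursor sum is lowest in both CT4 libraries (233 and 238.2 CPM), and the glucocorticoid sum at CT4 overlaps the others.

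The remaining marker lists held no call other than Rgs16 in the SCN neuron list. SCN neuron markers (7 of 10 higher) summed to 923.9 and 1136 CPM in the CT4 libraries and 663.4 to 1173 in the others, and none was at 0 in any library. General neuronal markers (5 of 10 higher) summed to 5081 and 5586 CPM against 4215 to 5521. The members higher at CT4 were 4 of 8 endothelial, 5 of 8 mural, 5 of 7 ependymal, 3 of 6 tanycyte, 3 of 6 choroid plexus and 5 of 5 blood markers. They were 4 of 5 markers of magnocellular neurons, 2 of 4 of arcuate, 5 of 7 of telencephalic and 3 of 6 of thalamic neurons, and 2 of 4 of pituitary cells. With the oligodendrocyte term 0 of 5 blood, 1 of 7 telencephalic and 0 of 10 general neuronal markers were higher, and 7 of 8 endothelial, 7 of 8 mural and 7 of 7 ependymal ones. Blood markers differed widely between libraries, with sums from 80.08 to 376.5 CPM at CT4 and 112.2 to 253.7 elsewhere.

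Set against single times by gene reads of all 8 libraries, CT4 differed most often from CT10 and least from CT22. These comparisons share the CT4 libraries. Against CT10, 6 genes were higher and 25 lower (edgeR, 0.0394% and 0.164% of 15217, 0.204% together; 1955, 12.8%, at an unadjusted p below 0.05). The higher were Fabp7, Rasl11b, Rgs16, Fosl2, Chodl and Rorb. The lower included myelin and glial genes such as Pllp (ratio 0.413), Sox10 (0.472), Mag (0.388), Cnp (0.508) and C4b (0.391), the potassium channel Kcna1 (0.514) and Txnip (0.582). Without the 28-h library 0 were called, without the 34-h library 2, without the 58-h library 1, without the 40-h library 77, without the 64-h library 83 and without the 52-h library 119. With the oligodendrocyte term 0 were called. The mean log2 level of these markers, centred over the libraries, itself differed: -0.92 and -0.21 at CT4, 0.59 and 0.35 at CT10. A call can be lost with the term at an unchanged estimate, as for Dusp4 against all other times (1.79 and 1.78). What ended the CT10 calls was not tested. Against CT16, 8 genes were higher and 2 lower (edgeR, 0.0526% and 0.0131%, 0.0657% together; 1262, 8.29%, at an unadjusted p below 0.05): Rasl11b, Rgs16, Fabp7, Dusp4 (ratio 6.10), Nr1d1 (2.08), Dbp, Per1 and Hmgb3 (1.80), and Sfpq and Rasd1. Without the 28-h library the count was 5, without the 64-h library 6, without the 52-h library 32 and without the 40-h library 33. Against CT22, Rasl11b was the 1 call (edgeR, 0.00657%; 4 without the 40-h or the 64-h library, 7 without the 22-h, 16 without the 46-h and 22 without the 52-h library), with 1093 genes (7.18%) at an unadjusted p below 0.05 and 20 genes by DESeq2.

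**Figure D4:**
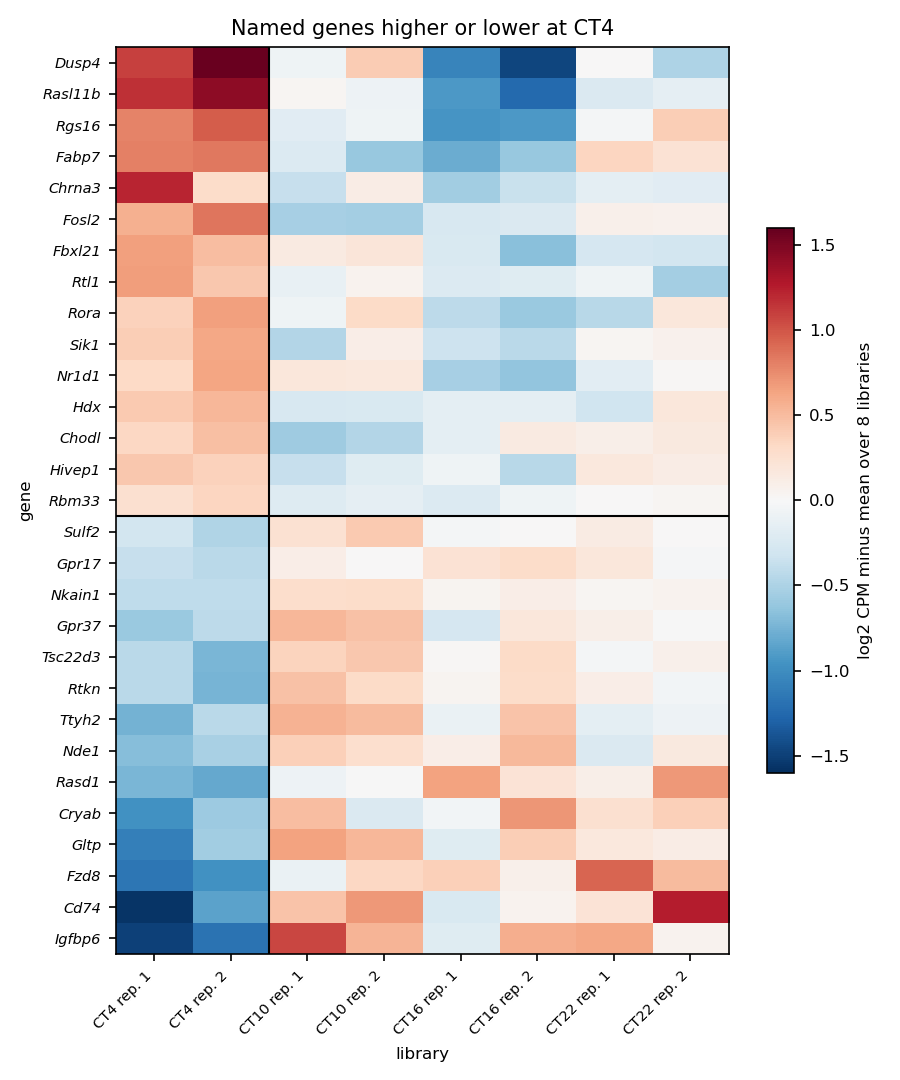
Level of each named gene (vertical axis) in the 8 libraries (horizontal axis, in order of circadian time) as colour, in log2 CPM minus the mean of that gene over the libraries. The CT4 pair are the highest for the 15 upper genes and the lowest for the 14 lower genes shown, as the selection sets, and CT22 comes nearer to CT4 than CT16 does for Rgs16 and Fabp7.

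Against CT10, 5 genes were higher and 4 lower by intron sums (edgeR, 0.0466% and 0.0373%, 0.0839% together; 855, 7.97%, at an unadjusted p below 0.05). Rgs16 (ratio 3.17), Rasl11b (5.15), Avp (4.75), Rims3 (2.26) and Camk2a (1.72) were higher at CT4, and Mobp (0.417), Vim (0.241), Bgn (0.359) and Cntn2 (0.591) lower. Against CT16, 8 were higher and 2 lower (edgeR, 0.0745% and 0.0186%, 0.0932% together; 1015, 9.46%, at an unadjusted p below 0.05), among the higher Rgs16 (4.96), Nr1d1 (2.87), Avp (9.15) and Creb3l1 (5.46). Against CT22 0 were called by edgeR and 0 by DESeq2, with 677 genes (6.31%) at an unadjusted p below 0.05.

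The number of genes at an extreme in both libraries depended on the time. Both libraries were outside the other 6 for 1705 genes at CT4 (11.2%), 2207 at CT10 (14.5%), 954 at CT16 (6.27%) and 875 at CT22 (5.75%). By introns CT4 had 1040 genes (9.69%), CT10 870 (8.11%), CT16 883 (8.23%) and CT22 893 (8.32%), and at CT4 those above (670, 6.24%) outnumbered those below (370, 3.45%). Within the first cycle CT4 was the highest of the 4 times for 3606 genes. For 1233 of these (34.2%) it was also highest in the second cycle, where CT4 was highest for 24.2% of all genes. CT4 was lowest in the first cycle for 4133 genes, and for 1565 of them (37.9%) again in the second, against 26.7% of all genes. By introns CT4 was highest in both cycles for 35.5% of the genes highest in the first, against 32.6% of all genes, and lowest for 23.5% against 22%. These shares are descriptions of 1 pair of cycles.

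Most of the separated genes lay close to the other libraries. Of those with a mean of at least 5 CPM, 589 were above, with a median gap to the nearest other library of 1.04 times, and 105 exceeded 1.1 times. Below were 743, with a median gap of 1.06 times, and 226 exceeded 1.1 times. Nek1 lay just inside on the upper side (108.93 and 112.56 CPM, nearest other 108.92) and Plxna3 just outside it (100.95 CPM in the lower CT4 library, 100.95 in the nearest other). Pole3 lay just inside on the lower side (32.571 and 32.751 against 32.757) and Elavl3 just outside it (176.04 and 200.56 against 200.54). Filtering let 15 genes in only through the CT4 libraries, and all 15 were above the other 6, so the count above holds them by construction.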

How the data were processed

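Polyadenylated SCN RNA was read in 8 libraries, each a pool of 3 mice; the labels state no replicates, and libraries of the same circadian time, 24 h apart, were taken as a group of 2 after their titles (hours past 24 reduced to CT). Collection is labelled as starting at CT18, while the first title is CT22. Per the submitters' processing notes, alignment was with STAR 2.3.0e to mm9; how reads were counted, with which strand setting, and how column totals were made nearly equal is not given in the sources used here. The deposited values used are whole-number read counts per gene on the sense strand and per intron, as the authors deposited them; antisense, exon and junction counts and the authors' rhythm statistics were not used here.

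Of 20741 genes, 15217 with at least 10 reads in at least 2 libraries were tested with edgeR 4.0.16 (quasi-likelihood, TMM scaling, Benjamini-Hochberg, threshold 0.05; R 4.3.3), with 1 mean per circadian time and the contrast of CT4 with the mean of the other 3, or with 1 of them. Counts of introns with 1 symbol and no overlap within their gene (104576 of 176269) were summed per gene and tested at the library sizes of the genes. CPM is a count scaled by the effective library size, and ratios are fitted CT4 levels over the others. The scripts were tested on simulated data. DESeq2 1.42.0 was an alternative. edgeR put the common coefficient of variation between libraries at 0.137 (genes) and 0.208 (introns).

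The CT4 libraries, the 17 pathway lists and 18 marker lists (504 of 507 symbols matched) were chosen with earlier results of these data known. Named genes were those called, filled to 15 per direction by lowest p among genes with both CT4 libraries outside the other 6 and at least 5 CPM; each clock gene; up to 3 members of each pathway list; and 5 genes per direction by introns. Other genes, among them those called against 1 time alone, were named after their values were seen. Promoters were matched by symbol. A few genes that met this rule are not reported here.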

Additional observations from a re-analysis of the deposited data

Results flagged for a closer look

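A library far from the others of the comparison group was sought among the 6 libraries outside CT4 for each named gene, by Dixon's criterion at its 95% level, which chance meets in about 5% of groups. It was met in 4 of 96 named genes, no more than chance gives. Vip, which encodes vasoactive intestinal peptide, was at 375.5 CPM in the 46-h library (CT22) and 222.1 to 249.4 in the other 5. Rorb was at 194 CPM in the same library and 115.7 to 143.7 in the other 5, so that it lay between the CT4 libraries. Hdx was at 31.53 CPM in that library and 22.11 to 24.91 in the other 5. Hspa2, a heat shock gene, was at 57.14 CPM in the 64-h library (CT16) and 35.44 to 43.23 in the other 5.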

How the results depend on the processing

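The 9 genes called at CT4 kept their direction under every alternative run and were all called under DESeq2 size factors, DESeq2, the fit with the cycle as a replicate block and no filter. The number of calls moved: by DESeq2 it was 85 genes (187 against CT10, 53 against CT16, 20 against CT22), with no filter on low counts 364 (486, 249 and 188; 46 by introns), and with CT4 against the other 6 as 1 group 1 (Rasl11b; by introns 4, namely Rgs16, Rasl11b, Creb3l1 and Avp). With the cycle as a replicate block, in which numbers are those of the cycles and come from no label, it was 29 (67 against CT10 and 5 against CT22). With the oligodendrocyte score as a term it was 3 genes and 2 by introns, 0 against CT10 and 0 against CT22. Without 1 library in turn it ranged from 4 to 74 (6 to 22 by introns, 0 to 119 against CT10, 5 to 33 against CT16, 1 to 22 against CT22). The lone library of a pair is then assumed to vary like the other groups. A gap of 1.1 times left 576 of 1705 separated genes. The cause of these moves was not tested.

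Direction reversed in 14 named genes, none of them called by gene reads. On the log2 scale, the oligodendrocyte term gave Per3 0.076, Cry2 -0.031, Clock 0.13, Ldha -0.15, Mobp 0.033, Vim 0.13, Vip 0.0056, Gfap 0.038, Aqp4 0.38. Bhlhe41 was at -0.0047 with 2 groups and -0.0021 with the replicate block. Without 1 library in turn the range was -0.26 to 0.064 for Per3, -0.16 to 0.038 for Arntl, -0.13 to 0.071 for Clock, -0.41 to 0.042 for Nfil3, -0.13 to 0.13 for Bhlhe41, -0.031 to 0.20 for Srsf5, -0.095 to 0.36 for Ldha, -0.22 to 0.011 for Aldoa, -0.43 to 0.049 for Vip, -0.42 to 0.19 for Aqp4.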
